A study of Mus musculus with 12 samples.

Results

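The Dlk1-Dio3 cluster is an imprinted block of miRNA genes on mouse chromosome 12, and 38 of the 350 mature miRNAs measured in nuclear and cytoplasmic RNA of C166 endothelial cells came from it. Members were taken by name alone: every miRNA carrying 1 of 52 family numbers known from the cluster was included, whatever its letter or arm, and 30 of the 52 numbers were represented. The 38 members were processed from 30 hairpins, out of 54 hairpins with 102 mature miRNAs that RefSeq lists for these numbers on the chromosome. On GRCm38.p6 the hairpins ran from position 109580233 to position 109743795, a stretch of 163.563 kb, all on the plus strand. All 38 were matched to RefSeq by name.

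C166 is a single established endothelial line from mouse yolk sac. Its cells were separated into a nuclear and a cytoplasmic fraction after 0 h (normoxia), 2 h and 24 h in 1% oxygen, with no other treatment, and small RNA from equal amounts of input RNA was sequenced. The 6 groups were nucleus at 0, 2 and 24 h and cytoplasm at 0, 2 and 24 h, with 2 biological replicates each, 12 libraries in all. GEO's labels do not state that the replicates came from separate cultures, so the P values below measure the spread between these libraries.

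Imprinted genes are expressed from only 1 of the parental chromosomes, and the miRNAs of this cluster are made from the maternal one, together with the long non-coding RNAs Meg3, Rian and Mirg. One group of hairpins is transcribed opposite to the coding strand of Rtl1, a gene expressed from the paternal chromosome, and its miRNAs are perfectly complementary to the Rtl1 mRNA. A hairpin can yield a mature miRNA from its 5p arm, its 3p arm or both, and bases 2 to 8 of each mature strand, the seed, are the main determinant of which mRNAs are recognised. The cluster is known for expression in embryo, placenta and brain.

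The mature strands on which the results turn are printed here 5′ to 3′ from RefSeq (GRCm38.p6), with the seed in capitals. The first set holds the 4 members called lower in the nucleus at each of the 3 times (at least 2-fold, adjusted P under 0.01), and the other arm of 2 of their hairpins.
miR-434-3p: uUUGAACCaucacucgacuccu
miR-434-5p: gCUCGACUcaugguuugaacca
miR-136-3p: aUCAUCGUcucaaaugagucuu
miR-136-5p: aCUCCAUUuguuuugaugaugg
miR-299a-3p: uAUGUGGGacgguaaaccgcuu
miR-543-3p: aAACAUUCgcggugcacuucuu

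The second set adds 4 members whose response to 24 h of hypoxia differed between nucleus and cytoplasm and the 3 that rose in the nucleus. The hairpins of miR-494-3p and of both miR-382 arms follow, with the measured arms in capitals.
miR-494-3p: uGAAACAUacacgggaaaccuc
miR-382-3p: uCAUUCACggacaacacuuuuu
miR-382-5p: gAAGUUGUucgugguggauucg
miR-411-5p: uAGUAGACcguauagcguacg
miR-370-3p: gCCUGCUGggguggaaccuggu
miR-495-3p: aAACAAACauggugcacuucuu
miR-341-3p: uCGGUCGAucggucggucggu
Mir494: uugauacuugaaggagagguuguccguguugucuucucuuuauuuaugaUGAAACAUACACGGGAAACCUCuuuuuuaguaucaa
Mir382: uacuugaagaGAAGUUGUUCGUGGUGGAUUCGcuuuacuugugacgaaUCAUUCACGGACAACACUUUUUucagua

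No seed was shared within the cluster: the 38 members carried 38 distinct seeds, 16 of them on 5p arms and 22 on 3p arms. Some members were nevertheless close in sequence. miR-543-3p and miR-495-3p, whose hairpins lie 1420 bases apart, share the 12-base run ggugcacuucuu at the 3′ end and differ by 4 substitutions (U6A, U7A, G9A and C10U, from miR-543-3p to miR-495-3p, counted from the 5′ end). miR-300-3p and miR-381-3p differ by 3 (G4A, U21G and C22U). miR-411-3p lies within an edit distance of 2 of miR-379-3p, so reads of such pairs could in part have been assigned to the wrong member. Outside the cluster, miR-362-3p carried the seed of miR-329-3p and miR-344d-3p that of miR-410-3p.

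A hexamer, ACACGG, was read on the mature strand in 4 members (10.5%), and these 4 were the only carriers (1.33%) among the 301 measured miRNAs with a RefSeq sequence. They are shown with the hexamer in capitals.
miR-411-3p: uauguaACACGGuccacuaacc
miR-323-3p: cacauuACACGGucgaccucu
miR-494-3p: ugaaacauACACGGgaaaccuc
miR-485-3p: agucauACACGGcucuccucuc

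The carriers did not share a location: the log2 ratio of nucleus to cytoplasm over all libraries was −1.02 for miR-411-3p, −1.14 for miR-323-3p, −0.62 for miR-485-3p and 0.86 for miR-494-3p. The shorter run CGGU was present in 7 members (18.4%) and in 5.65% of the 301. Only a few fixed runs were counted, without a search over other runs, and their enrichment was not tested.

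The members were of middling to low abundance. The values deposited are normalized counts, read counts divided by a size factor for each library, a scaling that takes most miRNAs to be alike in both fractions. Mean normalized counts over the 12 libraries ran from 24.07 for miR-376b-3p (rank 343 of 350) to 3355 for miR-541-5p (rank 68), with a median of 205. miR-541-5p, miR-379-5p, miR-434-5p, miR-411-5p and miR-409-3p were the 5 most abundant, and 15 members had a mean under 100. The nuclear libraries held 3379276 to 4375616 reads in all miRNAs, of which 7064 to 12131 came from the cluster, against 4708753 to 7787926 and 29865 to 38224 in the cytoplasmic libraries. miR-210-3p, the best known hypoxia-induced miRNA, was higher after 24 h in the nucleus (log2 change 2.84) and in the cytoplasm (2.31), and miR-126a-3p, an endothelial marker, was present at 332 to 860 normalized counts. Of the markers of other tissues, the muscle miRNA miR-206-3p was as high, at 250.5 to 926. The epithelial miR-200b-3p had 32.7 to 174 and miR-200c-3p 13.6 to 91.0, the liver miRNA miR-122-5p 21.8 to 155 and the neuronal miR-9-5p 33.999 to 82.5. Other markers looked for were not among the 350 miRNAs. These were the muscle miR-1a and miR-133a, the neuronal miR-124 and the epithelial miR-200a, miR-141 and miR-429. The blood cell markers miR-142a, miR-223 and miR-451a were absent as well, and so was the other arm of the endothelial marker, miR-126a-5p.

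Over all times the cluster took a smaller share of the nuclear than of the cytoplasmic miRNA. Its members made up 0.203% to 0.295% of the normalized counts of a nuclear library, against 0.452% to 0.640% of a cytoplasmic library. Because miR-21a-5p alone dominates these libraries, the share was also taken without it: 0.402% to 0.645% in the nuclear libraries and 1.07% to 1.31% in the cytoplasmic libraries. In neither case did the fractions overlap. These are shares of the 350 measured miRNAs, from equal amounts of input RNA. Less of the cluster per nucleus and more of other miRNAs therefore cannot be told apart.

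For nucleus against cytoplasm, 19 of the 38 members were called lower in the nucleus, against 17.4% of all 350 miRNAs, and 0 were called higher, against 12.3%. Calls here and below required both a 2-fold difference and an adjusted P below 0.01, by limma on log2(normalized count + 1), a scale on which changes of rare miRNAs come out too small. At an adjusted P under 0.05 with any fold, 33 members were lower (28.9% of all) and 0 were higher (27.1% of all). The median log2 ratio of nucleus to cytoplasm was −0.99 over the members, 0.03 over all miRNAs and 0.16 over the 312 miRNAs outside the cluster. The 17 measured miRNAs of the Sfmbt2 intron cluster, another large imprinted cluster, which is expressed from the paternal chromosome, had a median of 0.46, with 2 called higher and 0 lower.

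**Figure D1:**
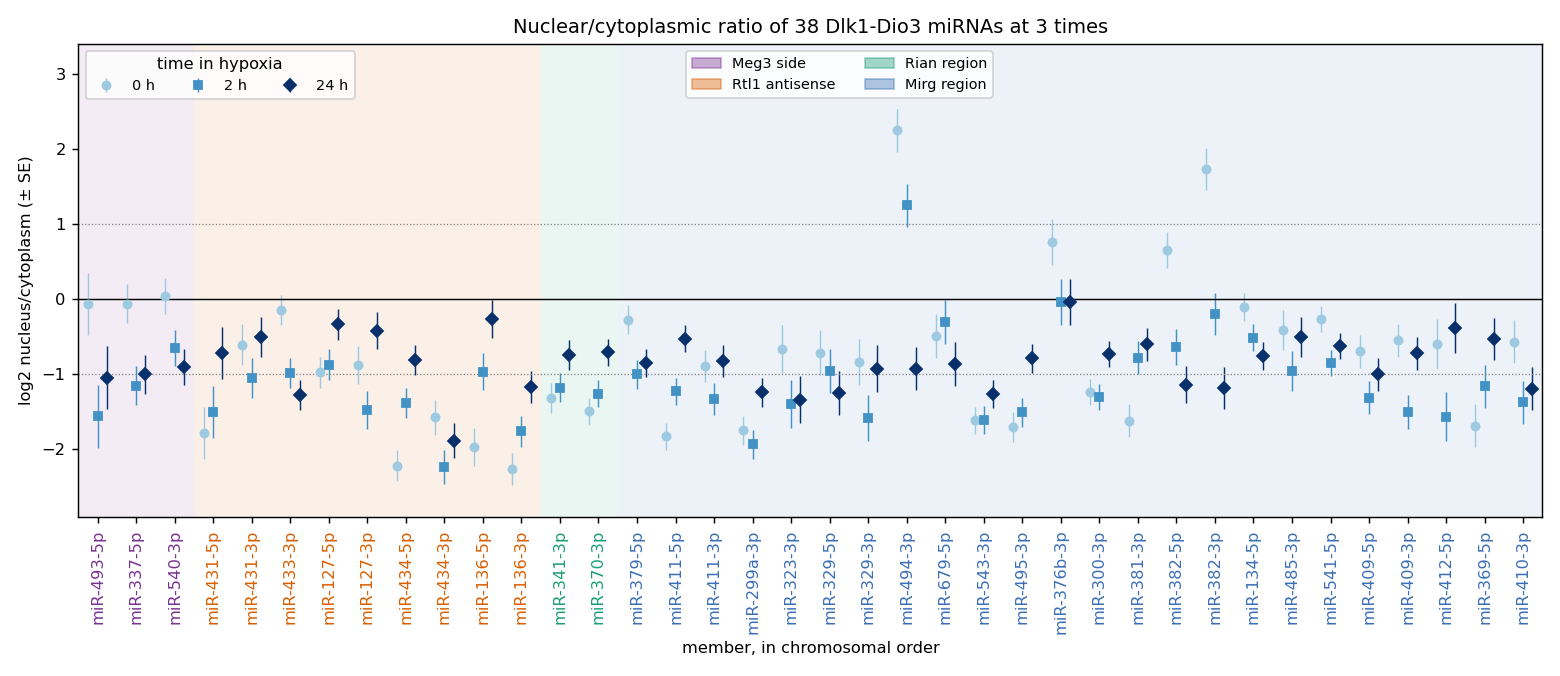
The log2 ratio of nucleus to cytoplasm of the 38 members, in chromosomal order, at 0, 2 and 24 h of hypoxia (points, ± SE of the fit, 2 libraries per fraction and time). Shading marks the 4 stretches of the cluster, and dotted lines mark a 2-fold difference. Most points lie below 0 at all times, and miR-494-3p and miR-382-3p stand above a 2-fold nuclear excess at 0 h and below 0 at 24 h.

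The members furthest to the cytoplasmic side came from the stretch opposite Rtl1 and from the Mirg region. miR-434-3p had 93.4 to 210 normalized counts in the nuclear libraries (median 141.5), against 437 to 615 in the cytoplasmic libraries (median 528). Its nuclear level was 3.73-fold lower (log2 −1.90, SE 0.19, adjusted P = 6e-07), and the fractions did not overlap.

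miR-136-3p had 62.0 to 153 normalized counts in the nucleus (median 107) and 320 to 400 in the cytoplasm (median 345), with log2 −1.73 (SE 0.20, adjusted P = 3.4e-06). miR-299a-3p had 75.5 to 126.5 in the nucleus (median 85.6) and 260 to 322.99 in the cytoplasm (median 295), with log2 −1.64 (SE 0.17, adjusted P = 1.1e-06). For both, every nuclear library lay below every cytoplasmic library.

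miR-543-3p followed, at 327 to 652 normalized counts in the nucleus (median 413) and 1022 to 1500 in the cytoplasm (median 1179; log2 −1.49, SE 0.19). Its neighbour of similar sequence, miR-495-3p, had a ratio of −1.33 (SE 0.21). In 20 members all 6 nuclear libraries lay below all 6 cytoplasmic libraries, against 18% of all miRNAs, and in 0 members did all lie above, against 15.4%.

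Lower nuclear levels were found along most of the cluster. Of the 9 members opposite Rtl1 (from Mir431 to Mir136), 5 were called lower, and all 9 were lower at an adjusted P under 0.05. Both members inside Rian were called, miR-341-3p (log2 −1.08) and miR-370-3p (−1.15). In the Mirg region, which ran from Mir379 to Mir410 and only from Mir382 onward overlaps the annotated Mirg transcript, 12 of 24 were called. On the Meg3 side none of 3 was called, although miR-493-5p (−0.89) and miR-337-5p (−0.74) were lower at an adjusted P under 0.05.

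Within the stretch opposite Rtl1, both arms of Mir434, Mir127 and Mir136 were lower in every nuclear library than in any cytoplasmic one. miR-434-5p, the most abundant of them, had 872 to 1496 normalized counts in the nucleus (median 1167), against 2388 to 5010 in the cytoplasm (median 3122; log2 −1.47, SE 0.20, adjusted P = 2.1e-05). miR-136-5p had 30.9 to 76.3 in the nucleus (median 62.4), against 84.5 to 161 in the cytoplasm (median 123.85; log2 −1.07, SE 0.24). The arms of Mir127 differed less: miR-127-3p had 153.8 to 294.4 in the nucleus, against 298.96 to 644.6 in the cytoplasm (log2 −0.92, SE 0.21), and was not called over all libraries.

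miR-431-5p had 19.1 to 52.6 normalized counts in the nucleus (median 41.0), against 78.5 to 130 in the cytoplasm (median 83.3), again without overlap (log2 −1.33, SE 0.24, adjusted P = 0.00026). Its partner miR-431-3p did overlap, with 33.8 to 57.1 in the nucleus and 45.3 to 98.98 in the cytoplasm (log2 −0.72, SE 0.20). So did miR-433-3p, with 324 to 610 in the nucleus and 481 to 831 in the cytoplasm (log2 −0.80, SE 0.19). Both arms of a hairpin were thus called for Mir434, Mir136 and Mir411, and a single arm for Mir431, Mir329 and Mir409. The uncalled arms of the latter were also lower at an adjusted P under 0.05 by limma, but by less than 2-fold. No arm ratio differed between the fractions after adjustment, as given below.

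In the Mirg region, miR-411-5p had 553 to 1080 normalized counts in the nucleus (median 785), against 1425.5 to 2329 in the cytoplasm (median 1779.5; log2 −1.19, SE 0.19, adjusted P = 7.6e-05), and its partner miR-411-3p had 97.9 to 177 in the nucleus, against 201 to 317 in the cytoplasm (log2 −1.02, SE 0.18). miR-329-3p had 15.1 to 31.3 in the nucleus, against 34.6 to 63.95 in the cytoplasm (log2 −1.11, SE 0.21). miR-409-5p had 43.96 to 85.1 in the nucleus, against 79.7 to 169 in the cytoplasm, so that the ranges met (log2 −1.002, SE 0.23), and its more abundant partner miR-409-3p fell short of the 2-fold limit (log2 −0.92, SE 0.23).

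Of the 5 most abundant members, miR-434-5p and miR-411-5p were called, as given above, and the others were lower in the nucleus by less than 2-fold. miR-541-5p had 2188 to 3283 normalized counts in the nucleus (median 2687), against 3294.2 to 4837 in the cytoplasm (median 3922; log2 −0.58, SE 0.14, adjusted P = 0.0029), close together but without overlap. miR-379-5p had 1645 to 3170 in the nucleus and 2606.5 to 4670 in the cytoplasm, which overlapped (log2 −0.71, SE 0.18, adjusted P = 0.004). At the other end of abundance, miR-412-5p had 13.7 to 39.7 in the nucleus and 27.9 to 64.3 in the cytoplasm, and miR-493-5p had 13.7 to 32.4 in the nucleus and 17.6 to 65.98 in the cytoplasm, with overlap for both. miR-376b-3p, the rarest member, had 21.8 to 35.3 in the nucleus and 16.4 to 27.9 in the cytoplasm, and did not pass the test over all libraries (log2 0.23, SE 0.19).

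Just 3 members had a positive ratio, and none of them passed the test: miR-494-3p (log2 0.86, adjusted P = 0.081), miR-376b-3p (0.23, adjusted P = 0.33) and miR-382-3p (0.12, adjusted P = 0.80). Without nucleus 24 h replicate 2, miR-494-3p was called higher in the nucleus (log2 1.19). The sign of miR-382-3p changed without nucleus 0 h replicate 1 or 2, without cytoplasm 0 h replicate 1 and with total-count scaling, and that of miR-376b-3p changed when miR-21a-5p was left out of that total. Both arms of the cluster lay on the cytoplasmic side: the median ratio was −0.87 over 16 5p members and −1.03 over 22 3p members, against 0.30 over the 5p and −0.05 over the 3p miRNAs outside the cluster. Across the 38 members the ratio was only weakly related to abundance (Pearson r = −0.135), chromosomal position (0.262), GC content (−0.007) and mature length (0.004), as a description over members that share the same libraries.

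The fractions were also compared at each time. At 0 h, 14 members were called lower in the nucleus (18% of all miRNAs) and 2 higher (19.7% of all). At 2 h, 24 were called lower (20% of all) and 1 higher (15.7% of all). At 24 h, 11 were called lower (10.6% of all) and 0 higher (5.14% of all). The median ratio of the members was −0.70 at 0 h, −1.20 at 2 h and −0.82 at 24 h, against −0.02, 0.02 and 0.11 over all miRNAs. The count at 24 h fell to 6 without nucleus 24 h replicate 2, and likewise without cytoplasm 24 h replicate 1.

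The 4 members whose sequences open the first set were called lower in the nucleus at each of the 3 times: miR-434-3p, miR-136-3p, miR-299a-3p and miR-543-3p. In 33 members the log2 ratio was negative at every time. Called at 2 h only were 9 members, among them miR-127-3p, which is fully complementary to Rtl1 mRNA (log2 −1.48, SE 0.25), and miR-411-3p (−1.33, SE 0.21). 7 members were called at no time, among them miR-541-5p, the most abundant of the cluster. Counts across the 3 times were made for the members only, so no share of all miRNAs stands beside them.

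At 0 h the 2 members called higher in the nucleus were miR-494-3p and miR-382-3p. Below the 2-fold limit, miR-382-5p (log2 0.65, adjusted P = 0.025 by limma) and miR-376b-3p (0.76, adjusted P = 0.039) were higher there too. miR-494-3p had 441 and 587 normalized counts in the nucleus, against 78.0 and 144 in the cytoplasm (log2 2.25, SE 0.29, adjusted P = 2.4e-06). miR-382-3p had 310 and 492.8 in the nucleus, against 83.1 and 163 in the cytoplasm (log2 1.74, SE 0.28, adjusted P = 3.7e-05). The fractions did not overlap for either, as was so in the same direction for 39.4% of all miRNAs at this time. miR-494-3p was still called higher in the nucleus at 2 h, with 365 and 327 normalized counts against 158 and 132 in the cytoplasm (log2 1.25, SE 0.29, adjusted P = 0.001).

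By 24 h the order had turned for both miR-494-3p and miR-382-3p. miR-494-3p had 151 and 85.6 normalized counts in the nucleus, against 236 and 199.98 in the cytoplasm (log2 −0.93, SE 0.29, adjusted P = 0.016). miR-382-3p had 105 and 117 in the nucleus, against 292 and 220 in the cytoplasm, and was called lower (log2 −1.19, SE 0.28, adjusted P = 0.0032). The other arm of its hairpin, miR-382-5p, was called lower as well, with 229 and 226 in the nucleus, against 576 and 437 in the cytoplasm (log2 −1.14, SE 0.24). Of the 38 members, 20 had a more negative ratio at 24 h than at 0 h, beside 159 of all 350 miRNAs.

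**Figure D2:**
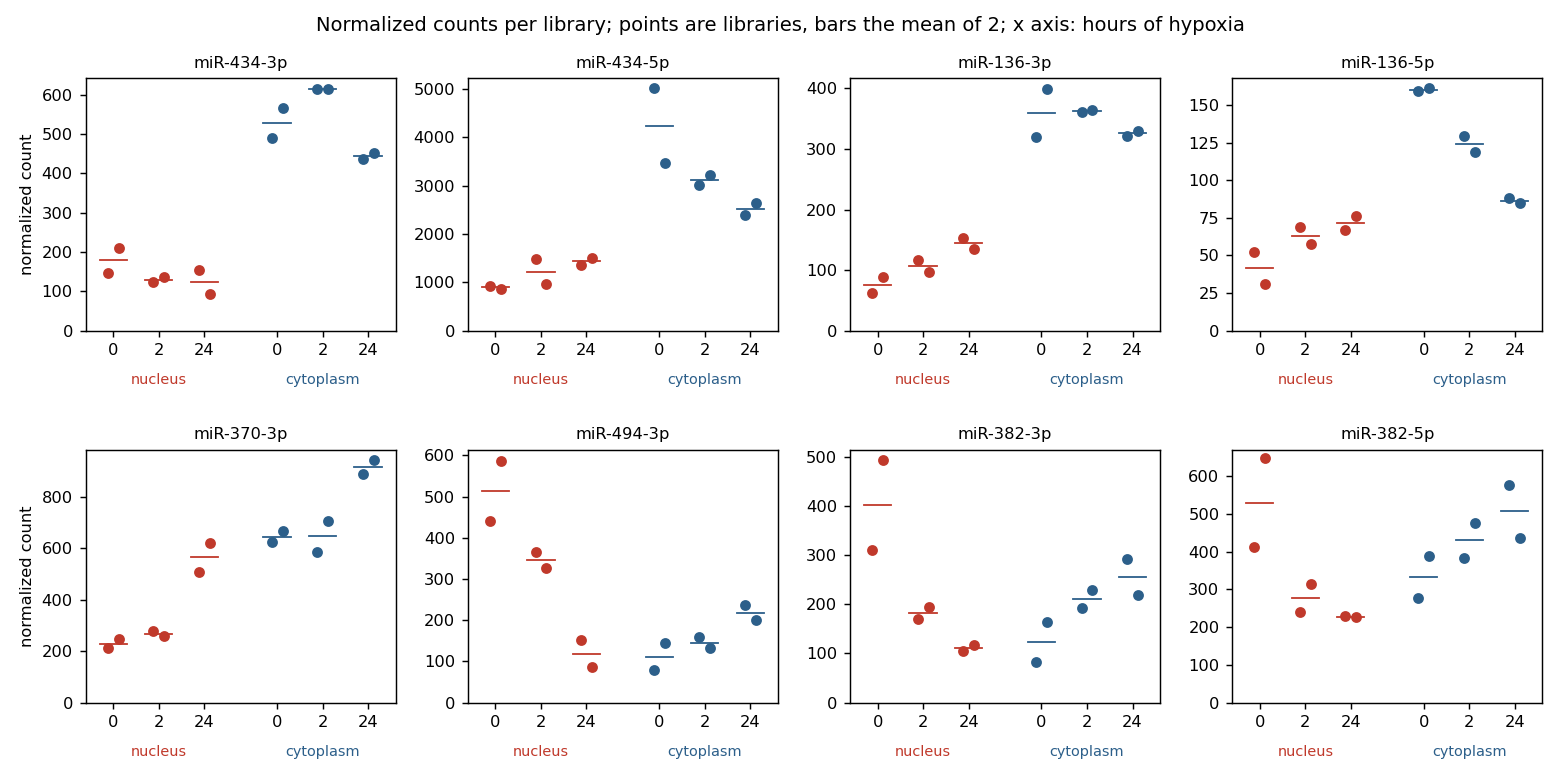
Normalized counts of 8 members in each of the 12 libraries (linear axes from 0; nucleus left in red, cytoplasm right in blue; points are libraries, bars the mean of 2; hours of hypoxia below). The nuclear points of miR-494-3p and miR-382-3p are highest at 0 h and lowest at 24 h, while those of miR-370-3p and miR-136-3p are highest at 24 h.

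In the nucleus, 3 members were called higher after 24 h than at 0 h (7.71% of all miRNAs) and 3 lower (13.1% of all). The 3 lower members were the group just described. miR-494-3p fell to 151 and 85.6 normalized counts at 24 h, against 441 and 587 at 0 h (log2 change −2.15, SE 0.25, adjusted P = 1.6e-05), which is 4.44-fold lower. miR-382-3p fell to 105 and 117, against 310 and 492.8 (log2 change −1.81, SE 0.24, adjusted P = 3.5e-05). miR-382-5p fell to 229 and 226, against 412.2 and 647 (log2 change −1.18, SE 0.23, adjusted P = 0.00083).

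The 3 members that rose in the nucleus included both members inside Rian. miR-370-3p had 506 and 621 normalized counts at 24 h, against 211 and 246 at 0 h (log2 change 1.30, SE 0.20, adjusted P = 0.00013). miR-341-3p had 341.4 and 318 at 24 h, against 176 and 143 at 0 h (log2 change 1.05, SE 0.20). miR-495-3p had 214 and 182 at 24 h, against 92.4 and 95.6 at 0 h (log2 change 1.06, SE 0.21). For none of these 6 did the libraries of the 2 times overlap, which held for 38.9% of all miRNAs upward and 37.4% downward.

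At an adjusted P under 0.05 with any fold, 13 members were higher in the nucleus after 24 h (22% of all) and 5 lower (24.6% of all), and the members' median change was 0.43, against −0.02 over all miRNAs. The 6 calls were 2 without nucleus 24 h replicate 1 and 2 without nucleus 24 h replicate 2. Of the 6, miR-494-3p was called under each alternative tried. Scaling mattered for the direction: there were 3 higher and 3 lower with the deposited scaling, 15 and 2 with a total count that left out miR-21a-5p, and 1 and 3 with scaling by miR-186-5p. Leaving miR-21a-5p out of the total moved the median change of all miRNAs to 0.43 and that of the members to 0.88.

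In the cytoplasm, 3 members were called higher after 24 h (4% of all miRNAs) and 0 lower (9.71% of all). They were miR-382-3p (log2 change 1.11, SE 0.26, adjusted P = 0.002), miR-540-3p (1.03, SE 0.25, adjusted P = 0.0023) and miR-494-3p (1.02, SE 0.26, adjusted P = 0.0029). miR-540-3p had 152 and 130 normalized counts at 24 h, against 60.4 and 77.3 at 0 h. For all 3 both libraries at 24 h lay above both at 0 h, as they did for 33.4% of all miRNAs.

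At an adjusted P under 0.05, 10 members were higher in the cytoplasm after 24 h (14.3% of all) and 3 lower (20.9% of all). The 3 lower ones were miR-136-5p, with 88.2 and 84.5 normalized counts at 24 h against 159 and 161 at 0 h (log2 change −0.88, SE 0.22), miR-434-5p (−0.73, SE 0.19) and miR-411-5p (−0.50, SE 0.18). The 3 calls depended on single libraries: there were 0 without cytoplasm 0 h replicate 1, 0 without cytoplasm 24 h replicate 1 and 5 without cytoplasm 0 h replicate 2. Scaled to miR-186-5p there were also 0.

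After 2 h no call was made in either fraction: 0 members in the nucleus, 0 members in the cytoplasm and 0% of all miRNAs by limma, and 0 members by limma-voom on the recovered reads. At an unadjusted P under 0.05 there were 12 of the 38 members in the nucleus, beside 102 of all 350 miRNAs, and 4 in the cytoplasm, beside 39 of all 350, which are similar shares. miR-382-3p had 170 and 195 normalized counts in the nucleus at 2 h, against 310 and 492.8 at 0 h (log2 change −1.10, SE 0.24, adjusted P = 0.028). miR-382-5p had 239 and 313, against 412.2 and 647 (−0.91, SE 0.23, adjusted P = 0.043). These were the 2 members lower at an adjusted P under 0.05 (5.14% of all miRNAs), and 0 were higher (2% of all). Leaving out nucleus 0 h replicate 1 gave 2 calls in the nucleus, leaving out nucleus 2 h replicate 2 gave 3, and leaving out cytoplasm 0 h replicate 2 gave 2 in the cytoplasm.

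An interaction term over the 12 libraries tested, at an adjusted P below 0.05, for unequal responses of nucleus and cytoplasm to 24 h of hypoxia. The nuclear change was the more positive one in 8 members (25.1% of all miRNAs) and the more negative one in 7 (21.1% of all).

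**Figure D3:**
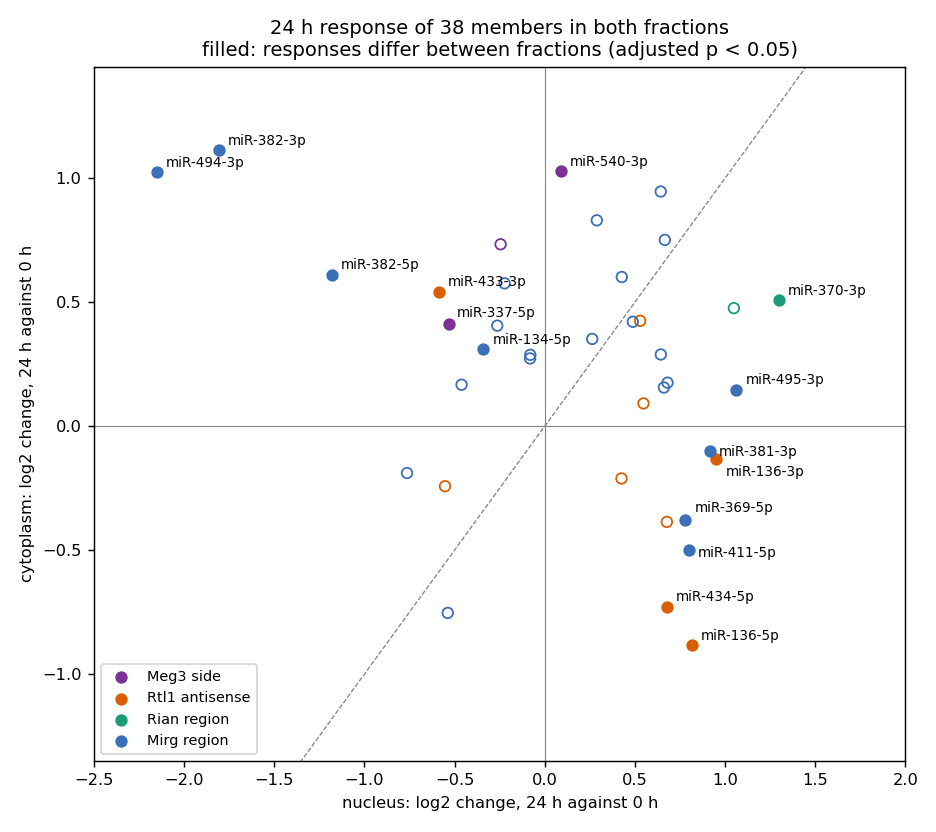
The log2 change at 24 h against 0 h in the nucleus (x axis) and in the cytoplasm (y axis) for the 38 members, coloured by stretch. Filled, named points are the 15 members whose response differed between the fractions, and the dashed line marks equal changes. miR-494-3p and miR-382-3p lie at the upper left, lower in the nucleus and higher in the cytoplasm, and miR-136-5p and miR-434-5p lie at the lower right.

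miR-494-3p and miR-382-3p had differences of −3.18 (SE 0.41, adjusted P = 1.6e-05) and −2.92 (SE 0.40, adjusted P = 3e-05) between the nuclear and the cytoplasmic log2 change, the second and the third most negative of all 350 miRNAs. Each was called lower in the nucleus and called higher in the cytoplasm. miR-382-5p had a difference of −1.79 (SE 0.34, adjusted P = 0.00073); it was called lower in the nucleus, and its cytoplasmic change of 0.61 was not called (adjusted P = 0.031). miR-433-3p, from the stretch opposite Rtl1, had a difference of −1.13 (SE 0.28, adjusted P = 0.0046) and was called in neither fraction (log2 change −0.59 in the nucleus and 0.54 in the cytoplasm). miR-433-3p had 338 and 332 normalized counts in the nucleus at 24 h, against 416 and 610 at 0 h, and 831 and 791 in the cytoplasm at 24 h, against 481 and 643 at 0 h. The remaining 3 with a more negative nuclear change were miR-540-3p (−0.94), miR-337-5p (−0.94) and miR-134-5p (−0.65).

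The opposite pattern was largest in miR-136-5p, miR-434-5p and miR-411-5p, but the 8 members with it were 4 5p and 4 3p arms. miR-136-5p had 67.2 and 76.3 normalized counts in the nucleus at 24 h, against 52.4 and 30.9 at 0 h, and fell in the cytoplasm as given above (difference 1.70, SE 0.35, adjusted P = 0.0014). miR-434-5p had nuclear counts of 1368 and 1496 at 24 h, against 919 and 872 at 0 h, and cytoplasmic counts of 2388 and 2647 at 24 h, against 5010 and 3466 at 0 h (difference 1.40, SE 0.29, adjusted P = 0.0012).

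miR-411-5p had a difference of 1.30 (SE 0.26, adjusted P = 0.00093), with 1080 and 967 normalized counts in the nucleus at 24 h against 622 and 553 at 0 h. The others were miR-369-5p (1.16), miR-136-3p (1.09), miR-381-3p (1.02), miR-495-3p (0.92) and miR-370-3p (0.79). Of the 15, 7 were called under every alternative tried: miR-494-3p, miR-382-3p, miR-382-5p, miR-433-3p, miR-136-5p, miR-434-5p and miR-411-5p.

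The split of the 15 depended on the scaling. There were 8 more positive and 7 more negative with the deposited scaling, 3 and 10 with total-count scaling, 12 and 4 with miR-21a-5p left out of that total, and 3 and 8 with scaling by miR-186-5p. miR-21a-5p itself had a difference of 1.13 (SE 0.27), and its part in these splits beyond the scalings given was not tested. The median difference was −0.09 over the members and 0.15 over all miRNAs.

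Members close to each other on the chromosome shared some calls and not others. miR-679-5p, whose hairpin neighbours that of miR-494-3p, was called in none of the comparisons. miR-134-5p, the neighbour of the Mir382 hairpin, was not called between the fractions at any single time, as it stayed under 2-fold. At 24 h it was nevertheless lower in the nucleus (log2 −0.75, adjusted P = 0.0038 by limma). Its difference in the 24 h response, called at an adjusted P under 0.05 with any fold, had the direction of both miR-382 arms (−0.65 against −1.79 and −2.92). That call of miR-134-5p was lost under 10 of 20 alternatives. The hairpins of miR-494-3p and miR-382-5p lie on chromosome 12 at 109715318 to 109715402 and 109733771 to 109733846. miR-495-3p was called in the interaction and its neighbour of similar sequence, miR-543-3p, was not. miR-381-3p was called and miR-300-3p was not. The differences within these pairs were not tested.

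The 8 hairpins with both arms measured showed arm ratios that spanned a wide range. On the log2 scale the ratio of 5p to 3p averaged 3.04 ± 0.69 in the nucleus and 2.61 ± 0.38 in the cytoplasm for Mir434 (SD, n = 6 each). Mir409 lay at the other end, with −3.64 ± 0.24 in the nucleus and −3.56 ± 0.28 in the cytoplasm, so that its 3p arm dominated in both.

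**Figure D4:**
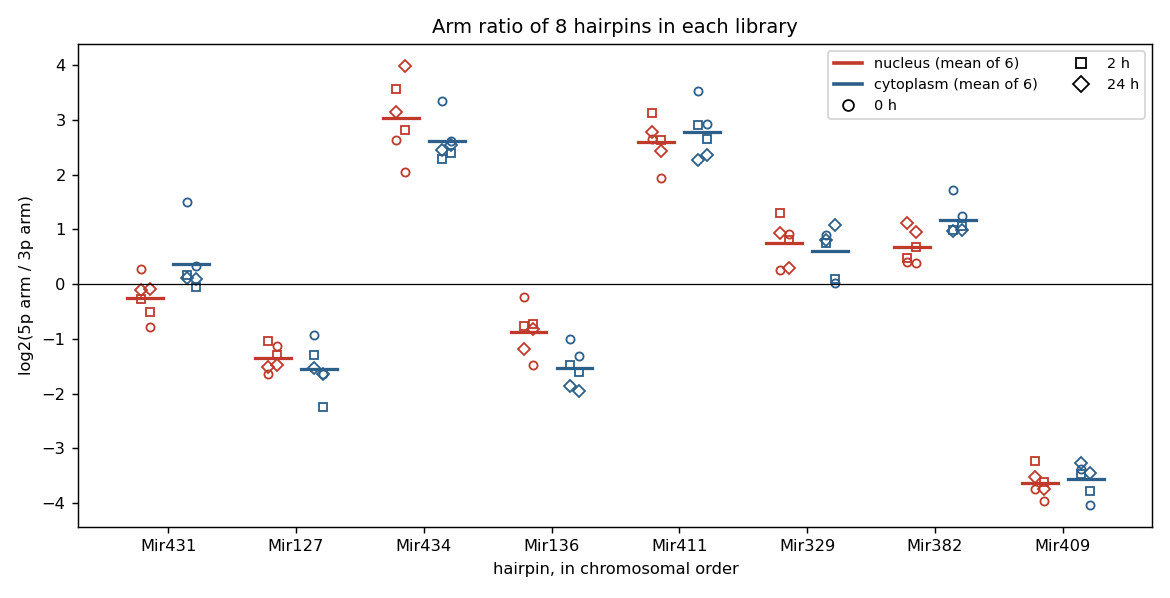
The log2 ratio of the 5p to the 3p arm in each library for the 8 hairpins with both arms measured, in chromosomal order (red, nucleus; blue, cytoplasm; symbols give the time; bars are means of 6). The hairpins differ far more from each other than the fractions do within a hairpin.

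No arm ratio differed between the fractions after adjustment over the 8 hairpins (two-sided exact permutation test over the libraries). The smallest adjusted P by this exact test was 0.063, shared by 3 hairpins. Mir136 had a higher 5p to 3p ratio in the nucleus, at −0.87 ± 0.43, than in the cytoplasm, at −1.53 ± 0.35 (SD, n = 6 each; difference 0.66, exact unadjusted P = 0.017). Mir431 differed by −0.61 and Mir382 by −0.49 (exact unadjusted P = 0.024 for each).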

How the data were processed

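Small RNA was sequenced in 12 libraries, 6 groups of 2. Per the labels' processing notes and the study's methods, base calls were converted with bcl2fastq, and the authors trimmed reads with Trimmomatic, aligned them to miRBase release 20 with Bowtie2 2.1.0, left out miRNAs with fewer than 10 reads, and divided counts by DESeq2 size factors. The deposited signal values are these normalized counts for 350 miRNAs. The authors' log2 fold changes and adjusted p-values per comparison stand in the same table and were not used.

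log2(normalized count + 1) was fitted with limma 3.58.1 (R 4.3.3, variance trend, Benjamini-Hochberg over 350 miRNAs). For nucleus against cytoplasm, fraction was the single term over 12 libraries. The fractions at each time were contrasts of 6 group means, and changes at 2 h and 24 h the 6 libraries of a fraction. A call needed an adjusted p under 0.01 and at least 2-fold, and for the difference between fractions an adjusted p under 0.05. Arm ratios were compared with an exact permutation test. Every value times its library's size factor was within 0.01 of a whole read, at least 10 in each, so rare members have wide errors. Fits were tested on simulated data. Sequences, hairpins and positions are from RefSeq GRCm38.p6, and overlaps from GENCODE M21. Python 3.11.15 with pandas 2.3.3 and scipy 1.17.1 was used.

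Any member could be named. Per-library values are given mainly for called members with the 5 largest changes in each direction, for hairpins with both arms, and for the 3 most and 3 least abundant members. The members, lists and tests were chosen with earlier results of these data known. Alternatives were a pseudocount of 10, a mean of at least 100, total count (with and without miR-21a-5p), TMM and miR-186-5p scaling, other thresholds, limma-voom on recovered reads, a time term, the replicate number as a block, and each library left out in turn. The RT-qPCR and the other cell lines of the study were not analysed here.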

Additional observations from a re-analysis of the deposited data

Results flagged for a closer look

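In 4 of 76 groups of 6 libraries, 1 per member and fraction, the highest library stood far from the rest by Dixon's test, which chance does in about 1 group in 20. They were miR-433-3p in nucleus 0 h replicate 2 (610.4 normalized counts), miR-376b-3p in nucleus 0 h replicate 2 (35.3), miR-329-5p in nucleus 24 h replicate 1 (60.44) and miR-431-5p in cytoplasm 0 h replicate 1 (130.3). A group of 6 spans 3 times, so such a value can also follow the time.

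The response to 24 h of hypoxia differed between the fractions in 15 of the 38 members by the interaction in limma, with 8 more positive and 7 more negative in the nucleus. Over all 350 miRNAs the same test passed 88 and 74, a share no smaller than that of the members, and the members' split became 3 and 10, 12 and 4, or 3 and 8 under the other scalings given in the report. The nuclear minus the cytoplasmic log2 change was −3.18 for miR-494-3p, −2.92 for miR-382-3p, −1.79 for miR-382-5p, −1.13 for miR-433-3p, −0.94 for miR-540-3p, −0.94 for miR-337-5p and −0.65 for miR-134-5p. It was 1.70 for miR-136-5p, 1.40 for miR-434-5p, 1.30 for miR-411-5p, 1.16 for miR-369-5p, 1.09 for miR-136-3p, 1.02 for miR-381-3p, 0.92 for miR-495-3p and 0.79 for miR-370-3p.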

How the results depend on the processing

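Counts are of members called, main value first. For nucleus against cytoplasm the 19 calls became 11 with a pseudocount of 10, 12 with a mean of at least 100, 30 with a total count that left out miR-21a-5p and 33 at an adjusted p under 0.05. At 0 h the 16 became 28 and 25 under the last pair of settings, at 2 h the 25 became 16 with a mean of at least 100, and at 24 h the 11 became 29 with total-count scaling, 21 with miR-21a-5p left out of the total and 28 at the looser threshold. For the 24 h change, the 6 nuclear calls became 17 with miR-21a-5p left out of the total and 18 at the looser threshold, and the 3 cytoplasmic calls 1 with a pseudocount of 10, 8 scaled to the total count, 0 scaled to miR-186-5p and 13 at the looser threshold. The 0 nuclear calls at 2 h became 2 at that threshold. The 15 differences between fractions became 8 at an adjusted p under 0.01 and 2-fold. Beyond these constructions, the cause was not tested.

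Leaving out 1 library gave 14 to 22 calls for nucleus against cytoplasm, 16 to 18 at 0 h, 18 to 25 at 2 h and 6 to 11 at 24 h, 2 to 8 for the nuclear and 0 to 5 for the cytoplasmic change at 24 h, 0 to 3 and 0 to 2 at 2 h, 10 to 18 for the difference between fractions, and 0 to 1 arm ratios (1 without nucleus 0 h replicate 1 or nucleus 24 h replicate 1). The ratio of nucleus to cytoplasm turned to −0.15 for miR-376b-3p with miR-21a-5p left out of the total. For miR-382-3p it turned to −0.094 with total-count scaling and −0.28 with miR-21a-5p left out, and lay between −0.14 and 0.30 with 1 library left out, negative without nucleus 0 h replicate 1 or 2 and without cytoplasm 0 h replicate 1. Neither was called.

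Same-numbered libraries of both fractions deviated together only weakly (r = 0.067 at 0 h, 0.239 at 2 h and 0.094 at 24 h), so the numbers were not taken to pair them. With the replicate number as a block, the counts were 19 for nucleus against cytoplasm, 16, 25 and 11 at 0, 2 and 24 h, 6 and 3 for the changes at 24 h, 0 and 0 at 2 h, and 17 in place of 15 for the difference between fractions. With 2 libraries per group, members of under 100 normalized counts are the least precise.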
